A study of Mus musculus with 48 samples.

Results

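The comparison described here sets the quadriceps of wild-type newborn mice against the tibialis anterior of wild-type newborn mice. The quadriceps (Quad) is the large extensor of the knee at the front of the thigh, and the tibialis anterior (TA) is the flexor of the ankle at the front of the shank. Members were the 6 libraries of each muscle whose columns are named for wild type in the deposited count tables, which makes 12 of the 48 libraries of the series. The study was made on C57BL/6 mice at postnatal day 0 and asked what loss of embryonic myosin heavy chain (Myh3) does to 4 muscles, so the contrast between muscles is a use of its controls. All 12 libraries carry the wild-type alleles of Myh3, written MyH3+/+ in the sample titles. The other libraries used for comparison are 6 Quad and 6 TA libraries labelled MyH3delta/delta, and 6 wild-type libraries each of gastrocnemius (Gastroc) and diaphragm (Dia). Muscles were flash frozen whole, so each library mixes fibres with connective tissue, vessels, nerve and any neighbouring tissue taken in dissection. In such bulk RNA, fewer cells of a type and less RNA per cell cannot be told apart. The sample titles use the same replicate numbers in each muscle, which may mark muscles of the same animal. The deposited columns of a group are numbered 0 to 5, and nothing ties these numbers to a title or an animal. The wild-type test therefore treats the 12 libraries as unpaired, and p-values measure the spread between these libraries.

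Muscles of the limb form where migrating myoblasts meet connective tissue that already carries a map of limb position. That map is written largely in transcription factors: Hox genes, whose order along each cluster follows the body and limb axis, their MEIS and PBX partners, and T-box, LIM and paired-type factors that mark proximal or distal, anterior or posterior and dorsal or ventral territory. In the mouse limb MEIS factors mark the upper segment, Hoxa11 the middle segment and Hoxa13 the foot plate. Skeletal muscles also differ in the share of slow fibres, which carry slow isoforms of myosin, troponin and tropomyosin, although at birth most fibres still hold embryonic and perinatal myosins.

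Counts assigned to genes came to between 12.2 M and 20.2 M per library in Quad (median 17.6 M) and between 13.1 M and 15.8 M in TA (median 15.2 M). Of 15635 genes kept by the authors in both tables, 14424 had enough counts to be tested. At an adjusted p under 0.05 (edgeR quasi-likelihood test, Benjamini-Hochberg adjustment), 362 genes differed between the muscles, which is 2.51% of those tested. Of these 150 were higher in Quad (1.04%) and 212 were lower in Quad (1.47%). A difference of at least 2-fold was reached by 89 genes (0.617%), with 52 genes higher in Quad (0.361%) and 37 lower in Quad (0.257%). The median log2 fold change of Quad over TA across all genes was 0.01. In 327 genes (2.27%) the 6 Quad and 6 TA libraries did not overlap. Most genes thus did not pass, and few had large differences. Muscle creatine kinase, Ckm, was abundant in every library, at 10217 to 12180 CPM (counts scaled to a common library size) in Quad and 10022 to 11937 CPM in TA. In each muscle 1 of the 6 wild-type libraries had counts of the Y-linked gene Ddx3y above 100 and almost none of Xist, the RNA of the inactive X, so the sexes are split alike in both groups.

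Cartilage RNA varied with muscle and library: the summed level of the cartilage and bone markers was 285.7 CPM in Quad library 1 and 994 to 1774 CPM in the other Quad libraries, against 343 to 470 CPM in TA. A fit chosen after seeing the data, called the cartilage fit here, took the mean log2 CPM of these markers as a covariate. Its total fell to 91 genes, with 71 of the 362 calls among them. All 362 genes kept their direction in it, while 57 moved toward 0 and 15 away from 0 by more than 1.5 times. Apart from Quad library 1, the marker sum was higher in every Quad library than in TA, so the covariate follows the muscle contrast in part. A call lost in this fit can reflect that overlap, and it does not by itself show that the muscles are alike.

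The sequences shown are promoters of 4 position factors that moved between the muscles: Hoxa11 and Hoxa13, lower in Quad, and En1 and Tbx18, higher in Quad together with the MEIS genes. They were taken from RefSeq (GRCm38.p6, the assembly behind mm10), run 5′ to 3′ on the strand of the gene, and span 250 bases before to 50 bases after an annotated start. Capitals mark the MEIS core motif TGACAG on either strand.
Hoxa11, chr6:52245761-52246060, minus strand: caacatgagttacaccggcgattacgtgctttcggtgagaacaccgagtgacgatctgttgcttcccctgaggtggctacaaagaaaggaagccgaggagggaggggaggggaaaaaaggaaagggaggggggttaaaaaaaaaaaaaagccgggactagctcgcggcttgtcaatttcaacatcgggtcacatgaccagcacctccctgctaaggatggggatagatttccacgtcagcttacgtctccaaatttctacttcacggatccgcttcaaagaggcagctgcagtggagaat
Hoxa13, chr6:52260831-52261130, minus strand: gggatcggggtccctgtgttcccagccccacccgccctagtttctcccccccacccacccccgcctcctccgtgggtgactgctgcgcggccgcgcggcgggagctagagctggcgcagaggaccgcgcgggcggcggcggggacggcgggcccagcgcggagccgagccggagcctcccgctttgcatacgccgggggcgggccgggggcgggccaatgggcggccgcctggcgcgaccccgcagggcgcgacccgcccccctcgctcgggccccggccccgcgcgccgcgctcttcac
En1, chr1:120602237-120602536, plus strand: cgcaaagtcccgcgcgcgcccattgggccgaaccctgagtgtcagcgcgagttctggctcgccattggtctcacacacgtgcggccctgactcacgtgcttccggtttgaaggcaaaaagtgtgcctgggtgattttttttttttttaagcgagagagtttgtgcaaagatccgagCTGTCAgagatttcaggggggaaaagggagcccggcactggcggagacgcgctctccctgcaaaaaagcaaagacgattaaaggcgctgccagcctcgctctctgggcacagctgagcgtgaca
Tbx18, chr9:87731211-87731510, minus strand: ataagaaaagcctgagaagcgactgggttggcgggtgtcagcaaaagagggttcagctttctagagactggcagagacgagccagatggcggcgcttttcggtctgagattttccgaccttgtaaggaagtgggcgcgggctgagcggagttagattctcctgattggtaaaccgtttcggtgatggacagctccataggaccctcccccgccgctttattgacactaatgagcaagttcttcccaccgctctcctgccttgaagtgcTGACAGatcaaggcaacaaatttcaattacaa

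Of the 21 position factors that differed between the muscles, 14 were matched to such a window. Those not matched were Alx4, Hoxc6, Hoxc8, Hoxc9, Hoxc11, Osr2 and Tbx3. The MEIS core TGACAG lay in 2 of the 14 windows (14.3%), those of En1 and Tbx18, against 19.2% of the 32851 promoter windows in the table. The other matched windows of factors higher in Quad, those of Meis1, Meis2 and Meis3, did not hold it, so the windows shown do not stand for the set. A composite PBX-HOX motif, TGATTNAT on either strand, lay in 0 of the 14 windows, against 3.22% of all windows. A posterior HOX motif, TTTATGG on either strand, also lay in 0 of the 14 windows, against 2.75% of all windows. These motifs do not overlap one another in the windows shown, and a missing match says only that these letters are not in these 300 bases.

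Position factors differed between the muscles in both directions. Of 46 tested factors on the list, 10 were higher in Quad, 11 were lower in Quad and 25 did not pass, where 2.51% of all genes passed. This list, like the others here, was chosen with earlier results of these data known, so its share of calls is not independent of them. The median log2 fold change of the list was -0.04. Hoxa11 and Hoxa13 of the middle and distal limb were lower in Quad, and the MEIS genes with several genes of the middle of the Hoxc cluster were higher in Quad. Hoxd13, another gene of the foot plate and picked after its value was seen, did not pass at 0.14 ± 0.35 (adjusted p = 0.99). In the cartilage fit 13 of the 21 calls were kept and none of the 21 values moved by more than 1.5 times, with Hoxa11 at -2.77 (adjusted p = 4.1e-05) and Meis2 at 2.28 (adjusted p = 0.00047). The calls of Hoxa10, Hoxd3, Lmx1b, Meis1, Meis3, Sim1, Osr2 and Prrx1 were lost in it, at adjusted p-values of 0.0698 to 0.364.

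Hoxa11, the factor of the middle limb segment, lies at chr6:52242108-52246214 on the minus strand (mm10). The promoter window shown above lies within that span, so its annotated start is not the 5′ end of the counted gene. It had a lowest, median and highest value of 2.06, 2.51 and 3.62 CPM in Quad, against 15.8, 18.5 and 20.4 CPM in TA. The highest Quad library lay far below the lowest TA library, and the log2 fold change of Quad over TA was -2.77 ± 0.13 (SE, n = 6 per muscle, adjusted p = 1.5e-08). The antisense transcript Hoxa11os moved with it, at -2.60 ± 0.14 (adjusted p = 5.6e-08). Whether the counting used strand is not stated, so reads of Hoxa11 and Hoxa11os cannot be told apart.

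Hoxa13, the factor of the hand and foot plate, lies at chr6:52257694-52260880. Its lowest, median and highest values were 0.17, 0.22 and 0.74 CPM in Quad, against 2.81, 3.17 and 4.37 CPM in TA. All Quad libraries stood below 1 CPM and the groups did not overlap, with a log2 fold change of -3.44 ± 0.27 (adjusted p = 3.5e-06). Hoxa10, a gene of the upper segment, differed much less: 21.1, 24.2 and 25.7 CPM in Quad, against 30.6, 33.8 and 36.0 CPM in TA, or -0.49 ± 0.07 (adjusted p = 0.00085). Hoxa9, added after the values were seen, did not pass at -0.02 ± 0.09 (adjusted p = 0.99). The differences of these 4 genes were larger the farther the gene lies toward the posterior end of the Hoxa cluster.

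Hoxd9 (chr2:74697680-74700208) held 1.47, 2.48 and 3.01 CPM in Quad, against 8.97, 11.8 and 13.1 CPM in TA. The groups were fully apart and the log2 fold change was -2.22 ± 0.15 (adjusted p = 1.0e-06). Hoxd3 was also lower in Quad, at -0.79 ± 0.14 (adjusted p = 0.0055). Hoxc11, a posterior gene of the Hoxc cluster, had 3.73, 4.67 and 5.97 CPM in Quad, against 9.64, 11.02 and 13.2 CPM in TA, and a log2 fold change of -1.24 ± 0.12 (adjusted p = 2.5e-05).

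Hoxc genes nearer the front of the cluster ran the other way. Hoxc8 (chr15:102990622-102994267) had 5.84, 7.35 and 8.81 CPM in Quad, against 1.21, 2.01 and 2.27 CPM in TA. Every Quad library was above every TA library, at a log2 fold change of 1.96 ± 0.15 (adjusted p = 3.5e-06). Hoxc6 was higher in Quad by 1.87 ± 0.19 (adjusted p = 4.4e-05) and Hoxc9 by 0.87 ± 0.10 (adjusted p = 0.00012), both with no overlap. Hoxc10 lies between Hoxc9 and Hoxc11, whose differences point opposite ways, and its own value was 0.27 ± 0.08 (adjusted p = 0.10). Hoxc4 and Hoxb2 were outside the rule for named genes and were picked after their values were seen. Hoxb2 was higher in Quad by 1.80 ± 0.29 (adjusted p = 0.0029) and Hoxc4 by 0.66 ± 0.14 (adjusted p = 0.021). The Hoxc4 call was lost in 4 of 12 fits that each left out 1 library (TA libraries 1, 2, 3 and 4, adjusted p 0.0519 to 0.0578). Neither Hoxb2 (adjusted p = 0.21) nor Hoxc4 (adjusted p = 0.15) was called in the cartilage fit.

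Over all clusters, 30 Hox genes were tested, of which 5 were higher in Quad, 6 were lower in Quad and 19 did not pass, beside 1.04% higher and 1.47% lower of all genes. The Hoxa cluster had 3 of 11 lower and the Hoxb cluster 1 of 8 higher. The Hoxc cluster had 4 of 7 higher and 1 lower, and the Hoxd cluster had 2 of 4 lower. No paralogue above 9 that passed was higher in Quad.

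**Figure D1:**
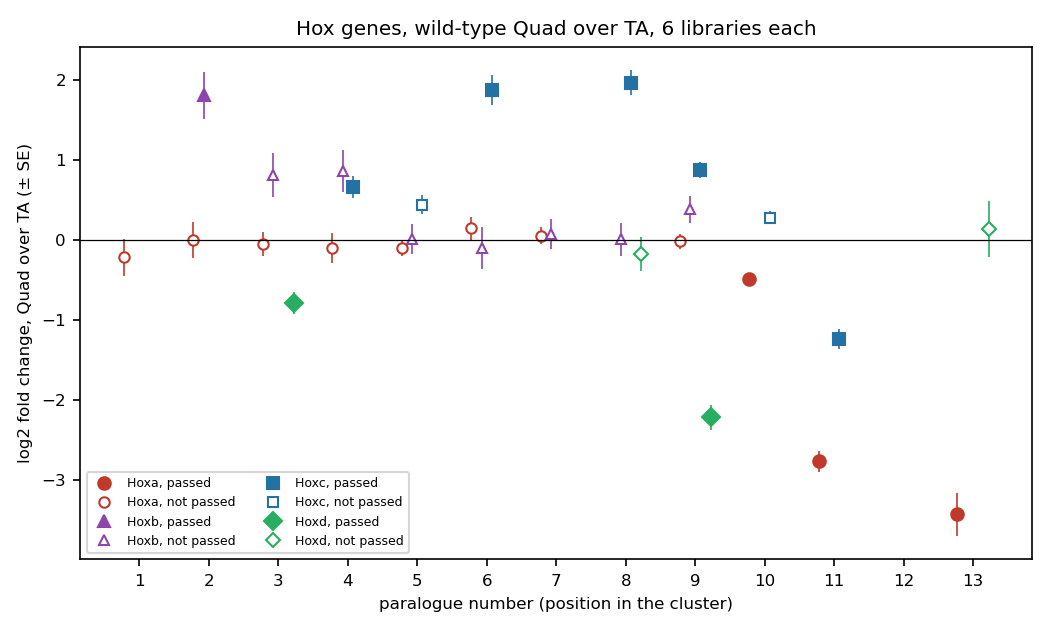
Log2 fold change of Quad over TA for each tested Hox gene (vertical axis, ± SE, 6 libraries per muscle) by its paralogue number (horizontal axis), with filled marks for genes with an adjusted p under 0.05. Hoxa11 at -2.77 and Hoxa13 at -3.44 sit lowest, and Hoxc8 at 1.96 and Hoxc6 at 1.87 sit highest.

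MEIS proteins are Hox cofactors that mark the upper limb segment. Meis2 (chr2:115863064-116065839) had 4.52, 5.29 and 6.14 CPM in Quad, against 0.645, 0.923 and 1.46 CPM in TA. The lowest Quad library was well above the highest TA library, and the log2 fold change was 2.36 ± 0.19 (adjusted p = 3.8e-06). Meis1 was higher in Quad by 0.61 ± 0.09 (adjusted p = 0.0013), with no overlap. Meis3 reached 0.42 ± 0.10 (adjusted p = 0.037), a call lost in 10 of 12 fits that left out 1 library, with an adjusted p of up to 0.108. Pbx2, which encodes a PBX partner of these proteins, did not pass, at 0.10 ± 0.08.

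Factors of other limb axes differed as well. Alx4, a paired-type factor of the anterior limb bud, held 11.5, 15.5 and 17.0 CPM in Quad, against 3.69, 4.26 and 5.76 CPM in TA, or 1.75 ± 0.14 on the log2 scale (adjusted p = 3.5e-06). En1, a homeodomain factor of the ventral limb ectoderm, was higher in Quad by 1.68 ± 0.13 (adjusted p = 3.9e-06). Lmx1b, the LIM factor that sets dorsal limb identity, was lower in Quad at 5.92, 6.53 and 8.41 CPM, against 10.5, 13.6 and 14.8 CPM in TA, or -0.89 ± 0.11 (adjusted p = 0.00037). These factors thus did not share a direction, although each separated all 6 Quad from all 6 TA libraries.

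Among T-box factors, Tbx18 was higher in Quad by 1.24 ± 0.13 (adjusted p = 4.7e-05) and Tbx3 by 0.90 ± 0.10 (adjusted p = 0.00012). Tbx15 had 233, 291 and 321 CPM in Quad, against 264, 318 and 347 CPM in TA, and did not pass (-0.14 ± 0.08, adjusted p = 0.61). The hindlimb factors Tbx4 and Pitx1, added after the values were seen, had log2 fold changes of -0.14 ± 0.10 and -0.06 ± 0.16 and did not pass.

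The zinc finger factor Zic1 had 0.576, 1.33 and 1.47 CPM in Quad, against 4.17, 4.74 and 5.16 CPM in TA, with no overlap and a log2 fold change of -1.96 ± 0.17 (adjusted p = 9.3e-06). Sim1, a factor known from migrating limb muscle precursors, was lower in Quad, at -1.31 ± 0.23 on the log2 scale (adjusted p = 0.0049). Osr2, a zinc finger factor of limb joints and connective tissue, was at -0.58 ± 0.11 (adjusted p = 0.011). Prrx1, a marker of limb mesenchyme, was at -0.33 ± 0.07 (adjusted p = 0.012), and it was the only one of these 4 whose ranges met.

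In the libraries labelled MyH3delta/delta, which come from other animals, Hoxa11 was at 2.65, 3.84 and 4.36 CPM in Quad, against 15.8, 18.3 and 25.1 CPM in TA. Meis2 was at 4.19, 6.02 and 7.23 CPM in Quad, against 0.618, 0.779 and 1.51 CPM in TA. Of the listed position factors 8 were higher in mutant Quad, as were 0.479% of all genes in that contrast, and 10 were lower, as were 0.527% of all genes. With the column number as a block 14 were higher, beside 5.84% of all genes, and 13 were lower, beside 6.64% of all genes.

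The other wild-type muscles place these values. In a joint scaling of all 4 muscles, Hoxa11 had a median of 2.58 CPM in Quad and 18.9 CPM in TA, beside 11.8 CPM in Gastroc. Hoxd9 had medians of 2.54 CPM in Quad and 12.1 CPM in TA, beside 13.1 CPM in Gastroc and 3.295 CPM in Dia. Gastroc, like TA a muscle of the shank, was on the TA side for these Hox genes.

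Other factors put Gastroc on the Quad side. En1 had medians of 8.01 CPM in Quad and 2.41 CPM in TA, beside 6.88 CPM in Gastroc. Tbx18 had medians of 23.4 CPM in Quad and 10.6 CPM in TA, beside 24.4 CPM in Gastroc. Meis2 had medians of 5.41 CPM in Quad and 0.945 CPM in TA, beside 7.59 CPM in Gastroc and 31.5 CPM in Dia. Meis1 instead lay near TA in Gastroc, with medians of 19.5 CPM in Quad and 12.8 CPM in TA, beside 12.2 CPM in Gastroc and 29.9 CPM in Dia. For Alx4 Quad stood alone, with medians of 15.9 CPM in Quad and 4.38 CPM in TA, beside 1.63 CPM in Gastroc and 6.00 CPM in Dia. No test was run on the other muscles here.

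**Figure D2:**
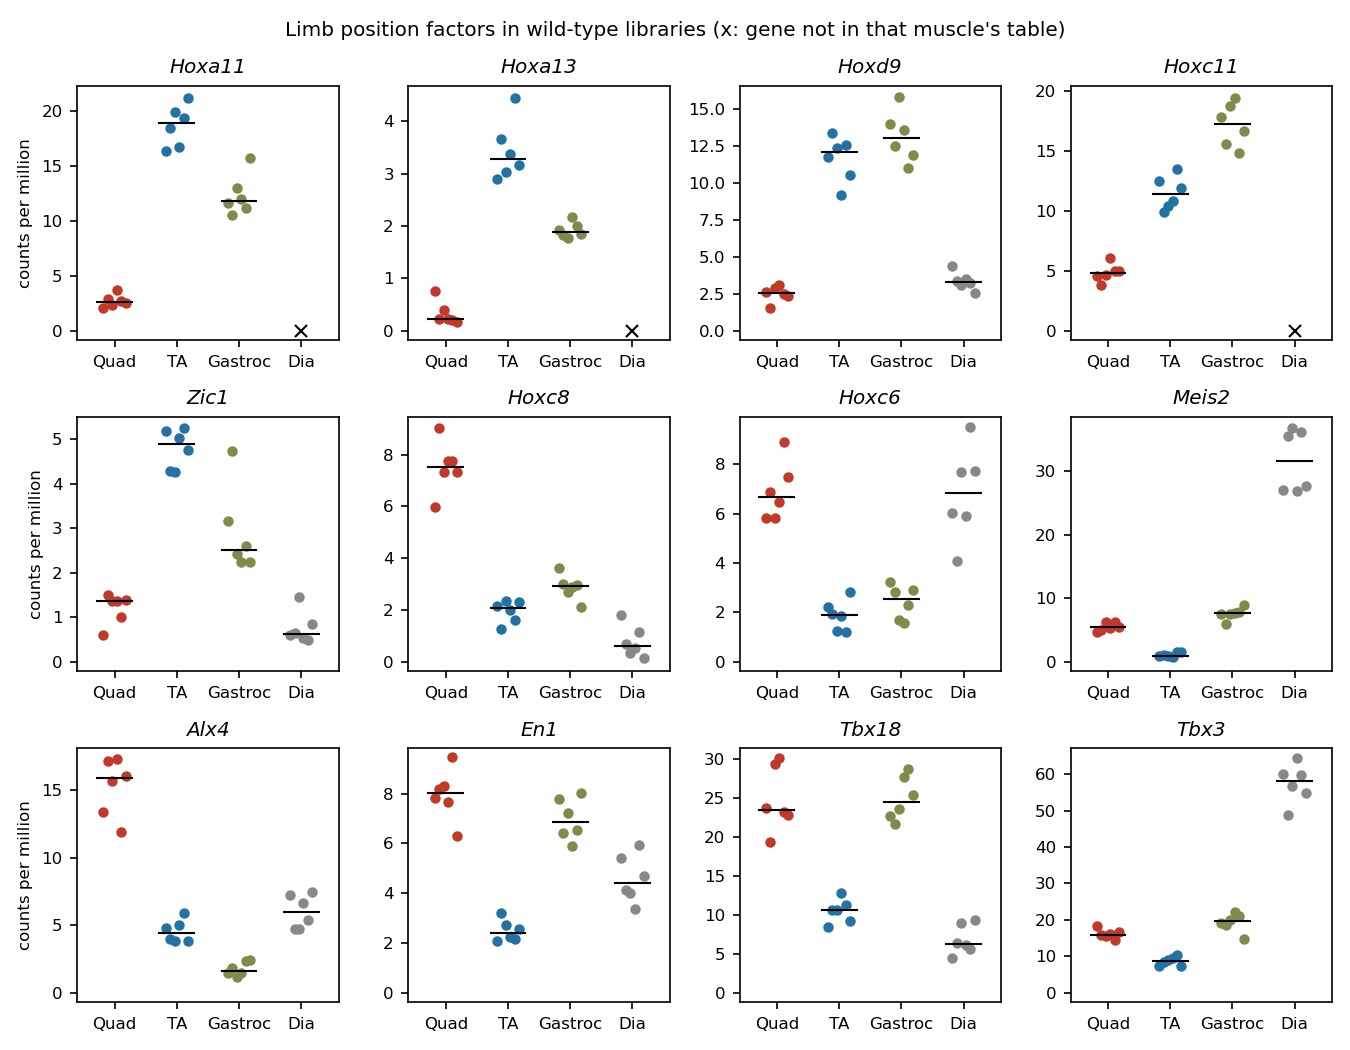
CPM (vertical axes, scaled over 24 wild-type libraries) of 12 position factors in each library of Quad, TA, Gastroc and Dia, with the median as a bar and a cross where a gene is not in that muscle's table. The 12 were picked from the called factors, and Quad and TA do not overlap for any of them. Other called factors, such as Prrx1, had ranges that met. Gastroc lies near TA for Hoxd9 and near Quad for En1 and Tbx18.

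Some position factors could not be tested, because the authors kept them in 1 muscle's table and left them out of the other for low counts. The smallest library maximum kept was 10 counts, so a gene left out had fewer than 10 counts in every library of that table, at most 9, which is at most 0.739 CPM in Quad or 0.688 CPM in TA. Tbx5, known as the T-box factor of the forelimb, was kept for Quad, where its lowest, median and highest counts were 45, 69.5 and 112, and left out of TA. Evx2, the homeobox gene at the end of the Hoxd cluster, was also kept for Quad, at 25, 36 and 43 counts. Hoxd10 was kept for TA, at 44, 61 and 71 counts, and left out of Quad. Hoxd11 was kept for TA at 18, 27 and 37 counts, Sall1 at 45, 57 and 77 counts, and Hand2 at 22, 28 and 36 counts.

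These genes were picked after their values were seen. Each muscle's table covers both genotypes, so a gene left out of it is missing for both. The split between tables therefore cannot differ between genotypes and shows no recurrence. In the muscle that kept the gene, libraries labelled MyH3delta/delta had Tbx5 at 55 to 99 counts (Quad) and Hoxd10 at 29 to 98 counts (TA). Over all genes, 455 were in the Quad table alone, and 186 in the TA table alone. Of the TA genes, 183 had been left out of Quad for low counts, while H19, mt-Co1 and Mylpf had been left out of Quad through the authors' flag for high counts. H19, the imprinted growth-related RNA, had 438699 to 767452 counts in TA, mt-Co1 had 158829 to 242781 and the fast light chain gene Mylpf had 144203 to 212082, and none of these can be compared here.

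The slow-fibre genes that passed were all lower in Quad. Of 16 tested genes on the list 8 were lower in Quad, 0 were higher and 8 did not pass, with a median log2 fold change of -0.32 beside 0.01 for all genes, and 1.47% of all genes were lower. The 8 were Myh6, Csrp3, Myh7b, Myl2, Tnnc1, Tpm3, Tnnt1 and Myh7. In the cartilage fit all 8 stayed lower in Quad and none moved by more than 1.5 times, but only Tnnc1 of the 8 was called (adjusted p = 0.025, the others 0.0581 to 0.29). The slow ventricular light chain gene Myl2 had 174, 231 and 314 CPM in Quad, against 349, 376 and 461 CPM in TA. No Quad library reached the lowest TA library, and the log2 fold change was -0.72 ± 0.13 (adjusted p = 0.0049).

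Myh7, which encodes slow myosin heavy chain, had 595, 774 and 946 CPM in Quad, against 938, 1036 and 1150 CPM in TA. The ranges met at the edge, and its call (-0.46 ± 0.11, adjusted p = 0.030) was lost in 8 of 12 fits that left out 1 library, with an adjusted p of up to 0.0755. The related myosin genes Myh6 and Myh7b were lower in Quad, at -0.69 ± 0.10 (adjusted p = 0.00096) and -0.75 ± 0.13 (adjusted p = 0.0049) on the log2 scale. Myh6 and Myh7 are neighbours of very similar sequence, so reads may be split between them.

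The thin-filament genes moved by less. Slow troponin C, Tnnc1, had 245, 266 and 314 CPM in Quad, against 339, 350 and 390 CPM in TA, or -0.36 ± 0.06 (adjusted p = 0.0058). Slow tropomyosin, Tpm3, was at -0.34 ± 0.07 (adjusted p = 0.015) and slow troponin T, Tnnt1, at -0.29 ± 0.06 (adjusted p = 0.017). In the mutant libraries with the column number as a block, Tnnc1 was at -0.05 and not called (adjusted p = 0.62). Tpm3 at -0.45 and Tnnt1 at -0.15 were called lower in Quad there. Slow myosin-binding protein C, Mybpc1, did not pass at -0.03 ± 0.06, nor did sarcolipin, Sln, at 0.13 ± 0.08.

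Csrp3, a LIM protein of the Z-disc, had 193, 235 and 346 CPM in Quad, against 394, 524 and 646 CPM in TA, or -0.99 ± 0.16 (adjusted p = 0.0024). Its log2 fold change of Quad over TA was 0.06 ± 0.21 in the mutant libraries, beside that of wild type. The test of the difference between genotypes gave 1.05 ± 0.28 (mutant minus wild type, unadjusted p = 0.0010), which did not survive adjustment over 15055 genes (adjusted p = 1.0). For the slow list as a whole the mutant libraries gave 2 of 16 lower, beside 0.527% of all genes, at a median of -0.05. With the column number as a block 7 of 16 were lower, beside 6.64% of all genes, at a median of -0.06.

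Of 19 fast-fibre genes 1 passed, beside 2.51% of all genes. This was Myh13, the extraocular myosin, at 16.3, 17.97 and 23.9 CPM in Quad, against 23.9, 28.4 and 35.4 CPM in TA (-0.61 ± 0.11, adjusted p = 0.0046, and 0.0716 in the cartilage fit). The fast genes Atp2a1, Ckm, Tnnt3 and Tpm1 had log2 fold changes of -0.06 ± 0.09, 0.04 ± 0.06, 0.01 ± 0.05 and 0.00 ± 0.06. Embryonic myosin Myh3 had 3818, 4610 and 5422 CPM in Quad, against 3619, 4449 and 5366 CPM in TA, and did not pass (0.04 ± 0.10, adjusted p = 0.99). Perinatal myosin Myh8 had 24979, 32902 and 35848 CPM in Quad, against 25107, 32024 and 34218 CPM in TA (0.02 ± 0.10).

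Of 13 developmental sarcomere genes, 1 was higher and 2 were lower in Quad, beside 1.04% and 1.47% of all genes. Chrng, the fetal subunit of the acetylcholine receptor, had 82.1, 83.7 and 99.5 CPM in Quad, against 55.0, 66.2 and 71.0 CPM in TA, or 0.44 ± 0.07 (adjusted p = 0.0031). It was the only one of 19 neuromuscular junction genes to pass. Myl6b, a light chain of slow and embryonic muscle, was at -0.54 ± 0.09 (adjusted p = 0.0026). Cardiac actin, Actc1, was at -0.32 ± 0.08 (adjusted p = 0.043), a call lost in 9 of 12 fits that left out 1 library (adjusted p up to 0.098). None of these 3 was called in the cartilage fit (adjusted p 0.0662 to 0.428).

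**Figure D3:**
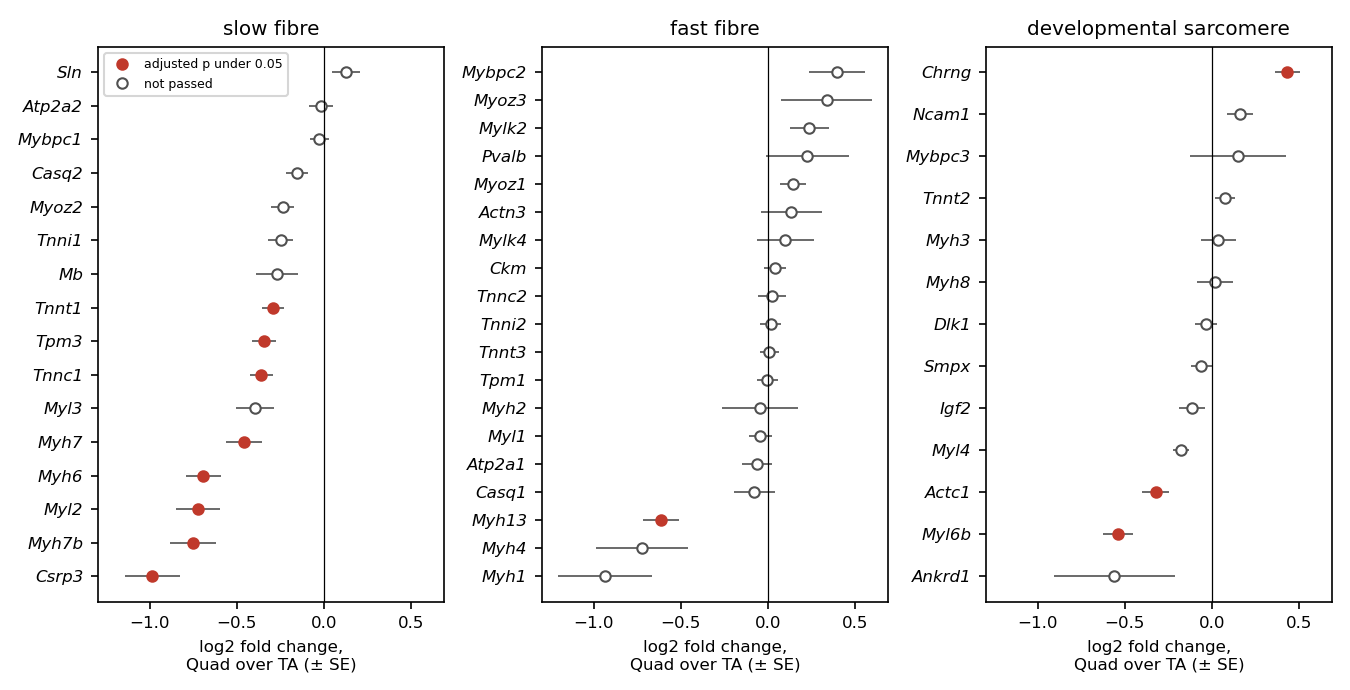
Log2 fold change of Quad over TA (horizontal axes, ± SE, 6 libraries per muscle) for the slow-fibre, fast-fibre and developmental sarcomere genes, with filled marks for an adjusted p under 0.05. The 8 slow genes that passed all lie to the left of 0, while 1 fast gene, Myh13, passed.

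Among 34 myogenic regulators, 1 was higher and 2 were lower in Quad, beside 1.04% and 1.47% of all genes. Barx2, a homeobox gene of muscle precursors, had 3.39, 5.06 and 6.14 CPM in Quad, against 1.27, 1.75 and 2.39 CPM in TA, or 1.45 ± 0.18 (adjusted p = 0.00034). Pax7, the marker of satellite cells, was at -0.44 ± 0.08 (adjusted p = 0.0045). Neither Barx2 (adjusted p = 0.066) nor Pax7 (adjusted p = 0.27) was called in the cartilage fit. None of 28 glycolysis, 24 proliferation or 24 immediate early genes passed in the edgeR test, with medians of 0.03, 0.02 and 0.04.

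Of 38 oxidative and lipid genes, 2 were higher and 1 was lower in Quad, beside 1.04% and 1.47% of all genes. Lipoprotein lipase, Lpl, was at 536, 545 and 605 CPM in Quad, against 380, 456 and 507 CPM in TA (0.30 ± 0.06, adjusted p = 0.021). Plin5, a lipid droplet protein, was at 0.42 ± 0.10 and lost its call in 8 of 12 fits that left out 1 library (adjusted p up to 0.0923). Cox7a1, the muscle isoform of a cytochrome oxidase subunit, was at -0.43 ± 0.09 and lost its call without TA library 0, 1 or 2 (adjusted p 0.0512 to 0.0585). None of the 3 was called in the cartilage fit (adjusted p 0.179 to 0.3). Hspb7, a small heat shock protein, was the only one of 22 stress genes to pass. Its log2 fold change of Quad over TA was 0.18 ± 0.24 in the mutant libraries and -0.56 ± 0.09 (adjusted p = 0.0036) in wild type. With the column number as a block, the mutant value was 0.19 and was called, opposite to wild type (adjusted p = 0.041).

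Of 54 tested guidance genes 8 were lower and 1 was higher in Quad, and 45 did not pass, with a list median of -0.07. Over all genes 1.47% were lower and 1.04% were higher. Gdnf and Epha3 kept their calls in the cartilage fit. Gdnf, a neurotrophic factor that supports motor axons, had 3.16, 5.14 and 7.16 CPM in Quad, against 9.68, 14.8 and 19.8 CPM in TA. The groups did not overlap and the log2 fold change was -1.53 ± 0.23 (adjusted p = 0.0016). Its coreceptor gene Gfra1 was lower in Quad as well, at 14.97, 15.97 and 17.7 CPM in Quad, against 19.7, 22.6 and 24.3 CPM in TA (-0.47 ± 0.07, adjusted p = 0.0019, and 0.23 in the cartilage fit).

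The ephrin receptor gene Epha3 was at -0.58 ± 0.08 (adjusted p = 0.00055). The semaphorin genes Sema3d and Sema3c were at -0.78 ± 0.13 (adjusted p = 0.0036) and -0.42 ± 0.08 (adjusted p = 0.013), and netrin-1, Ntn1, at -0.38 ± 0.07 (adjusted p = 0.0083). In the cartilage fit Sema3d was at -0.48 (adjusted p = 0.36), Sema3c at -0.25 (adjusted p = 0.55) and Ntn1 at -0.31 (adjusted p = 0.36), and none of them was called. The remaining calls were added after the values were seen. The plexin gene Plxnd1 at -0.24 ± 0.06 and Ephb6 at -0.66 ± 0.16 lost their calls in 7 and 8 of 12 fits that left out 1 library (adjusted p up to 0.0761 and 0.111). Slit2, the only one higher in Quad, at 0.78 ± 0.17 (adjusted p = 0.025), lost its call in 5 of 12 (adjusted p up to 0.0629). These 3 calls were also lost in the cartilage fit (adjusted p 0.246 to 0.59), with Slit2 at 0.50.

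Wnt modulators split by gene. Rspo2, a secreted enhancer of Wnt signalling, had 2.94, 4.10 and 5.11 CPM in Quad, against 0.864, 1.29 and 1.59 CPM in TA, or 1.65 ± 0.19 (adjusted p = 0.00016). Its relative Rspo3 had 6.92, 7.27 and 8.19 CPM in Quad, against 10.1, 13.6 and 14.3 CPM in TA, or -0.80 ± 0.10 (adjusted p = 0.00025). Both separated the muscles with no overlap, in opposite directions. Lgr5, a receptor of R-spondins, was at -1.25 ± 0.25 (adjusted p = 0.011). The secreted Wnt antagonists Sfrp1 and Sfrp2 were higher in Quad by 1.14 ± 0.17 (adjusted p = 0.0015) and 0.86 ± 0.16 (adjusted p = 0.0095). In the cartilage fit Sfrp1 was at 0.58 (adjusted p = 0.25), Sfrp2 at 0.64 (adjusted p = 0.37) and Lgr5 at -1.46 (adjusted p = 0.16), none of them called, while Rspo2 and Rspo3 kept their calls. In all 3 of 24 tested genes were higher and 2 were lower in Quad, beside 1.04% and 1.47% of all genes.

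Of 31 BMP, TGF-beta and FGF genes, 2 were higher and 2 were lower in Quad, beside 1.04% and 1.47% of all genes. The secreted antagonists Fst (0.89 ± 0.13, adjusted p = 0.0015) and Grem1 (1.41 ± 0.25, adjusted p = 0.0051) were higher, while the ligand Bmp7 was lower (-0.97 ± 0.12, adjusted p = 0.00029). Fst had 28.7, 31.4 and 39.8 CPM in Quad, against 12.4, 19.3 and 21.6 CPM in TA. Grem1 had 2.71 CPM in Quad library 1 and 5.40 to 9.62 CPM in the other Quad libraries, against 1.55 to 3.18 CPM in TA. In the cartilage fit Grem1 was at 0.50 (adjusted p = 0.62), Fst at 0.69 (adjusted p = 0.15) and Bmp7 at -0.70 (adjusted p = 0.090), none of them called. The ligand Tgfb2 was at -0.21 ± 0.05 (adjusted p = 0.048), a call lost in 10 of 12 fits that left out 1 library (adjusted p up to 0.116) and in the cartilage fit. Of 14 retinoic acid genes 1 passed, the synthetic enzyme gene Aldh1a2 at -0.46 ± 0.10 (adjusted p = 0.023). Its call was lost in 5 of 12 fits that left out 1 library (adjusted p up to 0.0547). In the cartilage fit Aldh1a2 was called at -0.78 (adjusted p = 0.012).

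Cartilage genes had the largest differences toward Quad, and they rest on 5 of the 6 Quad libraries. Col9a1, a chain of the cartilage collagen type IX, had 1.58, 47.2 and 77.3 CPM in Quad, against 0.337, 0.594 and 0.764 CPM in TA, or 6.30 ± 0.73 (adjusted p = 0.00016). Col2a1, the main collagen of cartilage, had 60.03, 719 and 1136 CPM in Quad, against 53.1, 79.3 and 99.7 CPM in TA, or 3.21 ± 0.47 (adjusted p = 0.0012). In both the low value is Quad library 1, which for Col2a1 lies inside the TA range. Both are among the markers that make the covariate of the cartilage fit, in which Col2a1 was at 0.40 and not called (adjusted p = 0.57).

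Over the 8 tested cartilage and bone markers, 2 passed, both higher in Quad, and 6 did not, with a median log2 fold change of 0.54, beside 1.04% of all genes higher. The aggrecan gene Acan was at 0.94 ± 0.24 (adjusted p = 0.055) and the cartilage factor Sox9 at 0.74 ± 0.19 (adjusted p = 0.055). Runx2, a factor of bone-forming cells, was at -1.04 ± 0.28 (adjusted p = 0.072), toward TA. Without Quad library 1, 5 of the 8 passed, beside 377 of all 14510 genes tested in that fit. That library was singled out after these same markers were seen to be low in it. The cartilage genes Lect1, Matn1 and Matn3 were kept in the Quad table alone, and in Quad library 1 they had 10, 5 and 4 counts, against 299 to 570, 73 to 215 and 52 to 155 in the other Quad libraries.

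The genes Col9a3 (3.97 ± 0.43), Hapln1 (3.12 ± 0.37) and Col9a2 (2.51 ± 0.31), which also build cartilage matrix, showed the same low library. Of the 52 genes at least 2-fold higher in Quad, Quad library 1 was the lowest of the 6 in 31, and it stood at or below the highest TA library in 16. For 13 of them it was more than 2-fold below the next Quad library. In the mutant libraries the cartilage sum was 788 to 2559 CPM in Quad, against 314 to 593 CPM in TA, with no overlap.

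Susd5 was high in Quad in every library: 8.08, 13.8 and 16.8 CPM in Quad, against 0.86, 2.37 and 3.44 CPM in TA, or 2.61 ± 0.25 (adjusted p = 2.4e-05). It kept its call in the cartilage fit. The part of cartilage tissue in these differences was not tested beyond that fit.

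**Figure D4:**
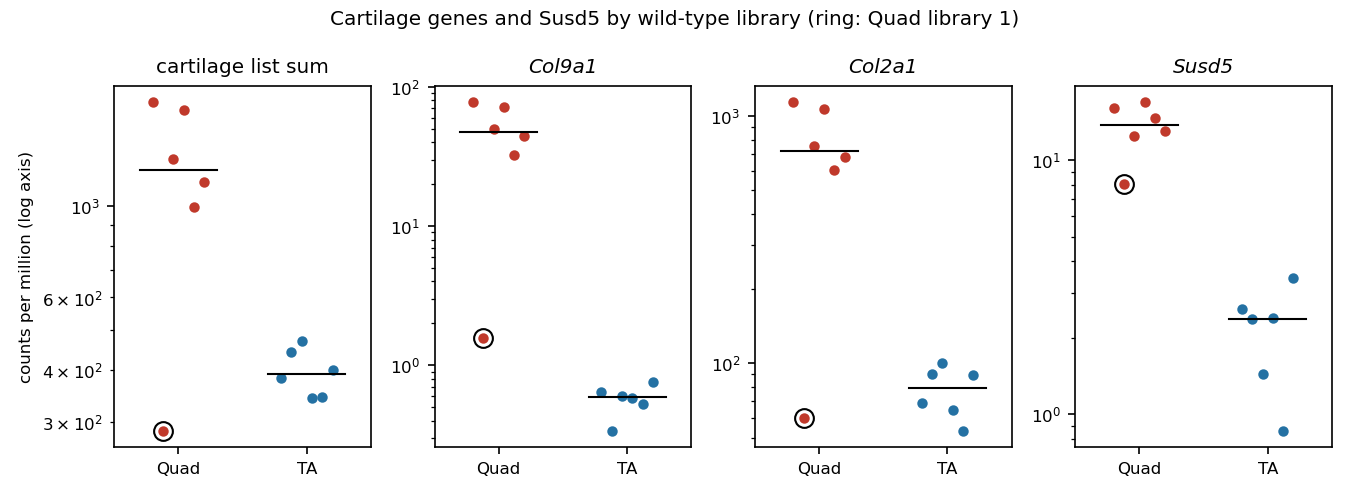
CPM (vertical log axes) of the summed cartilage and bone markers, Col9a1, Col2a1 and Susd5 in each wild-type library, Quad left of TA, with the median as a bar and a ring around Quad library 1. Quad library 1 holds 285.7 CPM of the marker sum and 60.03 CPM of Col2a1, within or below the TA values, while the other 5 Quad libraries lie above all TA libraries.

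Fat genes varied within Quad rather than by muscle alone. Adipoq, Cfd, Plin1 and Cidec were kept in the Quad table and left out of TA, so TA had fewer than 10 counts of each in every library. In Quad Adipoq, the adipocyte hormone adiponectin, had 39 to 506 counts, Cfd had 53 to 422, the lipid droplet gene Plin1 had 21 to 293 and Cidec had 9 to 195. The highest were Quad library 4 for Adipoq and Plin1 and Quad library 1 for Cfd and Cidec. Fabp4, which vessels also express, had 227, 269 and 355 CPM in Quad, against 193, 230 and 256 CPM in TA, and did not pass (0.29 ± 0.11, adjusted p = 0.27).

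Nerve genes went both ways. Prph, the intermediate filament peripherin of peripheral neurons, had 1.69, 2.35 and 3.10 CPM in Quad, against 9.66, 11.4 and 15.02 CPM in TA, or -2.31 ± 0.15 (adjusted p = 6.5e-07). S100b of Schwann cells was higher in Quad by 0.69 ± 0.14 (adjusted p = 0.011, and 0.30 in the cartilage fit). The 12 nerve markers summed to 409 to 879 CPM in Quad, lowest in Quad library 1, against 435 to 531 CPM in TA.

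Of 14 fibroblast genes 5 were lower in Quad, 0 were higher and 9 did not pass, at a list median of -0.22, beside 1.47% of all genes lower. The matrix proteoglycan decorin, Dcn, had 556, 586 and 678 CPM in Quad, against 747, 815 and 914 CPM in TA, or -0.47 ± 0.06 (adjusted p = 0.00058). Mfap5 was at -0.67 ± 0.08 (adjusted p = 0.00029), Pi16 at -0.81 ± 0.11 (adjusted p = 0.00055) and Cd34 at -0.36 ± 0.05 (adjusted p = 0.00030), each with no overlap. Lum was at -0.46 ± 0.10 (adjusted p = 0.022), a call lost without TA library 1 or 2 (adjusted p 0.0591 and 0.0531). In the cartilage fit Dcn kept its call, while Mfap5 (adjusted p = 0.055), Cd34 (adjusted p = 0.056), Lum (adjusted p = 0.093) and Pi16 (adjusted p = 0.11) did not. The main collagens Col1a1 and Col3a1 did not pass, at -0.25 ± 0.10 and -0.18 ± 0.07. The summed list had 27085 to 34805 CPM in Quad, against 30251 to 40072 CPM in TA.

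Of the other tissue markers, the tendon list had 1 of 12 pass, beside 2.51% of all genes. It was Kera at -0.64 ± 0.16 (adjusted p = 0.047), a call lost in 9 of 12 fits that left out 1 library (adjusted p up to 0.116). In the cartilage fit Kera was called at -1.31 (adjusted p = 0.00052). Of 10 pericyte and smooth muscle genes 2 were lower in Quad, Rgs5 at -0.43 ± 0.09 (adjusted p = 0.015) and Acta2 at -0.34 ± 0.07 (adjusted p = 0.021). The Acta2 call was lost without Quad library 0 or 5 or TA library 2 (adjusted p 0.0511 to 0.0575). Neither was called in the cartilage fit, with Rgs5 at -0.36 (adjusted p = 0.43) and Acta2 at -0.21 (adjusted p = 0.59). None of 11 endothelial, 10 macrophage, 6 erythroid, 4 adipocyte or 3 skin genes passed in the edgeR test. Of 6 liver genes 1 passed, Trf at 0.46 ± 0.11 (adjusted p = 0.044), lost in 9 of 12 such fits (adjusted p up to 0.103) and in the cartilage fit (adjusted p = 0.083). The liver gene Alb was at 0.395, 5.42 and 11.1 CPM in Quad, against 0.968, 7.37 and 12.6 CPM in TA.

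Several genes outside these lists separated the muscles. Ano3, of the anoctamin family of membrane proteins, was lower in Quad, at -2.99 ± 0.19 on the log2 scale (adjusted p = 5.2e-07), at 0.508, 0.588 and 0.996 CPM in Quad, against 3.94, 5.15 and 6.74 CPM in TA. Nrn1, the neurite growth factor neuritin, was at -2.11 ± 0.23 (adjusted p = 0.00011) and Gpr83, a G protein-coupled receptor gene, at -2.07 ± 0.33 (adjusted p = 0.0022, and 0.22 in the cartilage fit). The homeobox gene Gsc was at -1.65 ± 0.27 (adjusted p = 0.0033). The long noncoding RNA Miat was at -1.42 ± 0.12 (adjusted p = 6.4e-06), and Col8a1 at -1.33 ± 0.12 (adjusted p = 1.8e-05).

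Tbx1, a T-box factor known from head and neck muscle, had 16.8, 23.6 and 26.4 CPM in Quad, against 42.6, 50.7 and 56.7 CPM in TA (-1.14 ± 0.11, adjusted p = 1.9e-05). Among abundant genes, Igfbp5, a secreted binding protein of insulin-like growth factors, had 506, 537 and 544 CPM in Quad, against 753, 804 and 866 CPM in TA (-0.60 ± 0.05, adjusted p = 3.9e-06). The LIM protein gene Fhl1 had 3456, 3727 and 3953 CPM in Quad, against 5085, 5336 and 5481 CPM in TA (-0.52 ± 0.05, adjusted p = 2.4e-05). These are small differences with narrow spread in both muscles.

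Toward Quad, the chemokine scavenger receptor gene Ackr4 had 7.36, 8.30 and 9.51 CPM in Quad, against 1.55, 2.46 and 3.31 CPM in TA (1.79 ± 0.15, adjusted p = 5.5e-06). Phex, an endopeptidase gene known for phosphate handling in bone, was at 1.98 ± 0.21 (adjusted p = 8.2e-05). Fibin was at 0.91 ± 0.10 (adjusted p = 6.0e-05) and Tbc1d4, a regulator of glucose transporter traffic, at 0.81 ± 0.09 (adjusted p = 6.8e-05). Pck1, the gluconeogenic enzyme that fat also expresses, was at 2.92 ± 0.69 (adjusted p = 0.036), a call lost in 8 of 12 fits that left out 1 library (adjusted p up to 0.0885) and in the cartilage fit (adjusted p = 0.073).

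The same contrast in the libraries labelled MyH3delta/delta shows how far these differences recur in other animals. Myh3 was at 3716, 4475 and 5339 CPM in mutant Quad and 3045, 3445 and 3936 CPM in mutant TA. These ranges met those of wild type in both muscles, but every mutant TA library lay below the wild-type TA median. The genotypes were scaled separately, and this difference was not tested. With the column number as a block, Quad over TA of Myh3 was 0.39 in mutant libraries (edgeR, adjusted p = 1.8e-06), beside 0.04 in wild type. A count over the whole gene can include exons outside a deletion, so it does not check the labels. In these libraries 147 of 14615 genes passed (1.01%), and the 6 Quad and 6 TA libraries did not overlap for 1.38% of genes. With the column number as a block, 1824 passed (12.5%). That block takes same-numbered columns as pairs, which rests on how alike their values are and not on any label.

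Of the 362 genes called in wild type, 361 were tested in the mutant libraries, and 342 (94.7%) had the same direction, where 67.4% of all genes did. Of the 361, 109 (30.2%) were called in the mutant contrast too, all 109 in the same direction. With the block 294 (81.4%) were called, 292 of them in the same direction. The other 2 were Hspb7 and the integrin gene Itga9, which was at 0.16 in the blocked mutant fit (adjusted p = 0.044) and at -0.29 ± 0.07 in wild type. Among the genes of at least 2-fold, 57 of 88 (64.8%) were called, and 83 (94.3%) with the block. Glp2r was the only one of the 88 with the other sign, at -0.08 ± 0.31 in mutant libraries and 1.27 ± 0.23 in wild type.

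The interaction of genotype and muscle was tested in all 24 Quad and TA libraries. No gene of 15055 passed in edgeR, with 199 at an unadjusted p under 0.05, and none passed with DESeq2 (193) or limma voom (260). The smallest p-values belonged to Adprhl1, Ttc9, Phf10, Csrp3, Dusp5 and Uck2. Adprhl1, at 0.14 ± 0.08 in mutant libraries and -0.35 ± 0.07 in wild type, had an unadjusted p of 8.3e-05 and an adjusted p of 1.0.

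**Figure D5:**
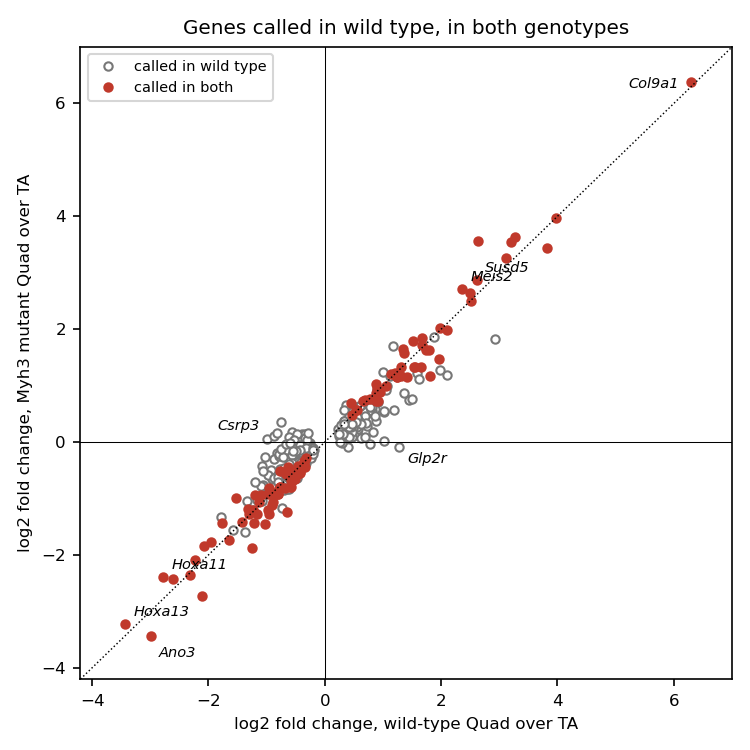
Log2 fold change of Quad over TA in libraries labelled MyH3delta/delta (vertical axis) against that in wild-type libraries (horizontal axis) for the 361 genes called in wild type and tested in both, filled where also called in the mutant contrast. Most points lie near the dotted line of equal values, with Hoxa13 and Ano3 at the low end and Col9a1 at the high end, while Csrp3 and Glp2r lie off it.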

How the data were processed

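RNA was measured in 12 wild-type libraries (6 Quad, 6 TA), set beside 12 mutant Quad and TA libraries and 12 wild-type Gastroc and Dia libraries. The deposited counts are raw numbers of alignments that overlap exons of a gene, a read pair counting once, per the file headers. The submitters' processing notes name Picard and mm10, and no aligner is named. Genes under 10 counts in every library of a muscle, and genes the authors flagged for high counts, are not in the tables, and the flagged genes were read only to say why a gene was missing. A deposited column of total exonic base pairs (a score here, without a scale of its own) was used only to describe genes. Another 96 per-sample columns of normalised values were not used.

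Tables were joined on gene ID, and genes were tested with edgeR 4.0.16 (filterByExpr, TMM, quasi-likelihood F test, Benjamini-Hochberg at 0.05) in R 4.3.3. The fit was tested on simulated data with known changes. CPM use TMM-scaled library sizes of the compared libraries, and standard errors were taken from the F statistic and the log2 change. Libraries were grouped by muscle and genotype, and no 2 libraries of a group agreed within sampling noise. Same-numbered mutant Quad and TA columns deviated together (r 0.789 to 0.88 in 6 pairs), so the block was used beside the mutant results. That pairing was read from these values and is given by no label, so the blocked counts depend on it. Wild-type column numbers did not pair the libraries. The sample titles share replicate numbers across muscles, but nothing ties the columns to those numbers, so the wild-type test was unpaired. Members and gene lists were chosen with earlier results of these data known. Named genes were the 12 with the smallest p and the 12 with the largest change per direction (at least 1 CPM in the higher muscle), the called position factors, up to 6 called and 4 not called genes of each other list, 6 interaction genes, 5 genes of 1 table, and Myh3, with predicted genes passed over. Some genes of these lists are counted with their list but not reported here by name. Alternatives were limma 3.58.1, DESeq2 1.42.0, other scaling, no filter, covariates and leaving out each library.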

Additional observations from a re-analysis of the deposited data

Results flagged for a closer look

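The genes and marker lists named above gave 274 groups of 6 libraries. In 11 groups (4.01%) the highest or lowest library stood apart from its nearest neighbour by Dixon's rule at the 95% level. Chance alone marks about 1 in 20 groups.

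Most of these sit in Quad. Hoxb2 had 1.97 CPM in Quad library 0, with the others at 0.904 to 1.28. Sim1 had 2.51 CPM in Quad library 3, with the others at 1.13 to 1.60, which still left every Quad library below TA. Osr2 had 24.4 CPM in Quad library 5, with the others at 27.1 to 28.2. Chrng had 99.5 CPM in Quad library 5, with the others at 82.1 to 88.3, and Lpl had 604.8 CPM in Quad library 4, with the others at 536 to 550.5. Ano3 had 0.996 CPM in Quad library 2, with the others at 0.508 to 0.658. Cox7a1 had 41.6 CPM in Quad library 3, with the others at 51.7 to 57.2. Quad library 1, which holds little cartilage RNA, was low for Epha3 (14.6 CPM, with the others at 17.4 to 18.4) and Aldh1a2 (15.3 CPM, with the others at 21.1 to 24.3).

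In TA, Myl2 had 461.3 CPM in library 5, with the others at 348.9 to 388.4. The macrophage markers summed to 334.9 CPM in TA library 4, with the others at 233 to 268.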

How the results depend on the processing

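The count of 362 genes stayed within 1.5 times under RLE scaling (365), no filter on low counts (364), DESeq2 (535), an Xist covariate (354), whole-table library totals (363) and a fit of all 24 wild-type libraries (306). It was 555 with limma voom, 182 with the replicate block and 91 with the cartilage covariate chosen after seeing the data (53 of at least 2-fold), of which 71 were among the 362; the causes were not tested. Leaving out 1 library gave 259 to 377 genes (78 to 107 of at least 2-fold), with 259 without Quad library 0. The mutant contrast gave 147 genes, 285 with DESeq2, 1824 with the block (122 of at least 2-fold), and 105 to 135 without 1 library (60 to 75 of at least 2-fold). The interaction gave 0 under every alternative. Wild-type column numbers do not pair Quad and TA (same-number r -0.578 to 0.642, 1 of 6 Quad libraries closest to its own number), so a call lost under that block is not a weaker effect. Each wild-type Quad library was closest to a different TA library (r 0.642 to 0.891), mostly of another number; this is a hint from the data, not the design, and no fit used those pairs. Of the genes named here, no called one changed direction in the wild-type contrast under these alternatives. Among those that had not passed, Acan turned to -0.25 and Col11a1 to -0.40 with the cartilage covariate, against 0.94 and 0.35 without it, and some other values that had not passed also changed sign in it. Depth limits genes of few counts: a gene with at most 9 counts in every library is not in a table.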

Other observations

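Further secreted cartilage proteins were among the genes at least 2-fold higher in Quad. Cytl1 was at 0.734, 4.77 and 7.14 CPM in Quad (lowest, median and highest), against 0 to 0.828 CPM in TA, or 3.82 ± 0.58 on the log2 scale (adjusted p = 0.0017). Ucma was at 3.26 ± 0.53 (adjusted p = 0.0028) and Clec3a at 2.50 ± 0.44 (adjusted p = 0.0052). Quad library 1 was the lowest for each of the 3. None of them was called in the fit with the cartilage markers as a covariate, where Cytl1 was at 1.74 (adjusted p = 0.40), Ucma at 0.32 (adjusted p = 0.87) and Clec3a at 0.35 (adjusted p = 0.87).

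The other wild-type muscles were not always between Quad and TA for the genes that differed, and no test was run on them. In the joint scaling of 4 muscles Tbx1 had medians of 24.1 CPM in Quad and 51.9 CPM in TA, beside 4.32 CPM in Gastroc and 100.04 CPM in Dia. Barx2 had medians of 5.17 CPM in Quad and 1.80 CPM in TA, beside 14.2 CPM in Gastroc and 33.9 CPM in Dia. Gdnf had medians of 5.26 CPM in Quad and 15.1 CPM in TA, beside 5.48 CPM in Gastroc and 5.08 CPM in Dia, so TA stood alone. Lmx1b, the dorsal limb factor, had medians of 6.69 CPM in Quad and 14.01 CPM in TA, beside 2.08 CPM in Gastroc and 0.127 CPM in Dia.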
